A study of Mus musculus with 8 samples.

Results

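RNA of mouse embryonic stem cells labelled as Rex-1 knockouts was compared with RNA of the wild-type line J1, both without leukemia inhibitory factor (LIF). The comparison rests on 4 of the 8 single-colour Affymetrix arrays of the study, chosen by their titles: 2 arrays titled J1_minus LIF and 2 titled as the Rex-1 knockout (Rex-1 KO or Rex KO) minus LIF. The other 4 arrays carry RNA of the same 2 kinds of cells grown with LIF. They gave further readings of the same genes, and they entered the choice of probe sets tested and the estimate of spread behind each p-value. The array of a group whose title ends in the letter r is called here the second array, the other one the first array. The study describes 2 biological replicates per condition, but no label says that they came from separate cultures, so a p-value speaks only of how these arrays vary. Cells grew as a monolayer on gelatin in serum-containing medium, and the protocol gives 12 hours without LIF in wording shared by every array. For the knockout arrays titled minus LIF, the growth text speaks of LIF being added. Titles and treatment text give no LIF, and these were followed. No label says how the Rex-1 alleles were disrupted or how many knockout clones were used, and the source name of the knockout arrays is J1.

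Rex-1, encoded by Zfp42, is a zinc finger protein of the same family as YY1 and a classical marker of undifferentiated embryonic stem cells, where it is abundant and is lost as cells differentiate. LIF signals through its receptor and gp130 to JAK kinases and STAT3, which hold mouse embryonic stem cells in the naive state. On withdrawal, cells start to move towards the primed state of the epiblast, which turns on genes such as Otx2, Pou3f1 and the de novo DNA methyltransferases.

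Of 45101 probe sets, 64 Affymetrix controls were left out, and the 14892 with a mean log2 signal of at least 8 over the 8 arrays were tested. They stand for 8365 genes with a symbol of their own. Just inside this floor lay Gm13205 at 8.0001 and Dapp1 at 8.0003, and just outside it 1700094D03Rik at 7.9999 and a minor probe set of Yy1 at 7.9994. Within this range the first and second arrays of a group differed by a median of 0.247 log2 units in J1 cells and 0.269 in the knockout cells at mean levels of 8 to 10, and by 0.175 and 0.204 at 10 and above.

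The label embryonic stem cell was checked against its markers. All 8 of 8 markers (Pou5f1, Sox2, Nanog, Utf1, Dppa5a, Tdgf1, Fbxo15 and Sall4) were above the floor, and their summed linear signal ran from 77270 to 89250 over the 4 arrays without LIF. Summed signals of the other marker lists ran from 214.4 to 375.7 for 5 trophoblast markers, from 672.5 to 1038 for 7 endoderm markers, from 380.1 to 512.0 for the 3 mesoderm markers with a probe set, and from 2018 to 2207 for 5 neural markers, the last of which are mostly the tubulin Tubb3. The first J1 array stood apart in the summed signal of its fibroblast or feeder markers, which there is mostly Acta2 and Tagln. The sum of the 9 markers was 10830 there against 1485 in the second J1 array, 2812 in the first knockout array and 1959 in the second. With LIF the first J1 array read 10690 and the other 3 from 1844 to 2696. Of the 9 markers 3 had a mean level above the floor. Without LIF, only Lum (5.35 against 7.20) and Dcn (4.63 against 6.72) were lower in the first J1 array than in the second. Col3a1 was nearly level, at 6.45 against 6.38.

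The targeted gene was read first. Zfp42 had log2 signals of 14.15 and 14.33 in the first and second J1 arrays and of 14.06 and 14.03 in the first and second arrays labelled knockout. Both knockout readings were below both J1 readings, but by only 0.19 on average (SE 0.17, adjusted p = 1.0 by limma), so the transcript detected by this probe set was still abundant in the cells labelled knockout. The labels do not place the probe set relative to the disrupted part of the gene, and outside that part it checks nothing. Yy1, the best known relative of Rex-1, read 12.54 and 12.34 in J1 cells and 12.63 and 12.19 in the knockout arrays (mean difference -0.03, SE 0.23), and the groups overlapped. Its 2 other probe sets above the floor differed by -0.20 and 0.05.

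The promoter of Zfp42 is shown because its control by Oct4 and Sox2 is one of the best described features of this gene. The 250 bases before the RefSeq start site on the minus strand (chr8:43307010-43307259, build GRCm38.p6) hold the octamer ATTTGCAT, the sequence bound by Oct4, which is given in capitals. On either strand this octamer occurs in 1.6% of the 32851 mouse promoter windows of the same length.
Zfp42: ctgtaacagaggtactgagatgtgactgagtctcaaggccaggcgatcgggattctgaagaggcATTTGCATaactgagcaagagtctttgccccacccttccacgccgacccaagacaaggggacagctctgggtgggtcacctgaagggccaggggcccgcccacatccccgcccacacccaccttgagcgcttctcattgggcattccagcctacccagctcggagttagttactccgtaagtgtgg

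No probe set passed the test in the fit with 1 mean per group and no block. limma called 0 of 14892 probe sets at an adjusted p under 0.05 (0.0%), and 406 (2.73%) had an unadjusted p under 0.05. With LIF the counts were 0 and 674 (4.53%), and for the genotype difference without LIF minus that with LIF they were 0 and 159 (1.07%). What follows is therefore a description of values, and no gene below is said to have changed. With the letter r as a block in the fit, limma called 4 probe sets without LIF and 3 with LIF at the same threshold.

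Across probe sets, the knockout-minus-J1 difference of the first arrays had almost no relation to that of the second arrays. Over 14892 probe sets Pearson's r was 0.033 and Spearman's coefficient 0.049, and 52.4% had the same sign. These points share the arrays and are no replicates of each other. Between media, the first-array difference without LIF had r = 0.384 with the first-array difference with LIF, and the second-array differences had r = 0.478, whereas across the letter r the values were 0.043 and 0.16. In the first arrays 51 probe sets were at least 2-fold higher and 99 at least 2-fold lower in the knockout, in the second arrays 148 and 87. Aldh2, a mitochondrial aldehyde dehydrogenase chosen after its values were seen, shows how far apart the pairs could be. It read 10.29 and 8.34 in J1 cells and 9.14 and 11.51 in the knockout arrays, a difference of -1.15 for the first pair and of 3.16 for the second pair.

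**Figure D1:**
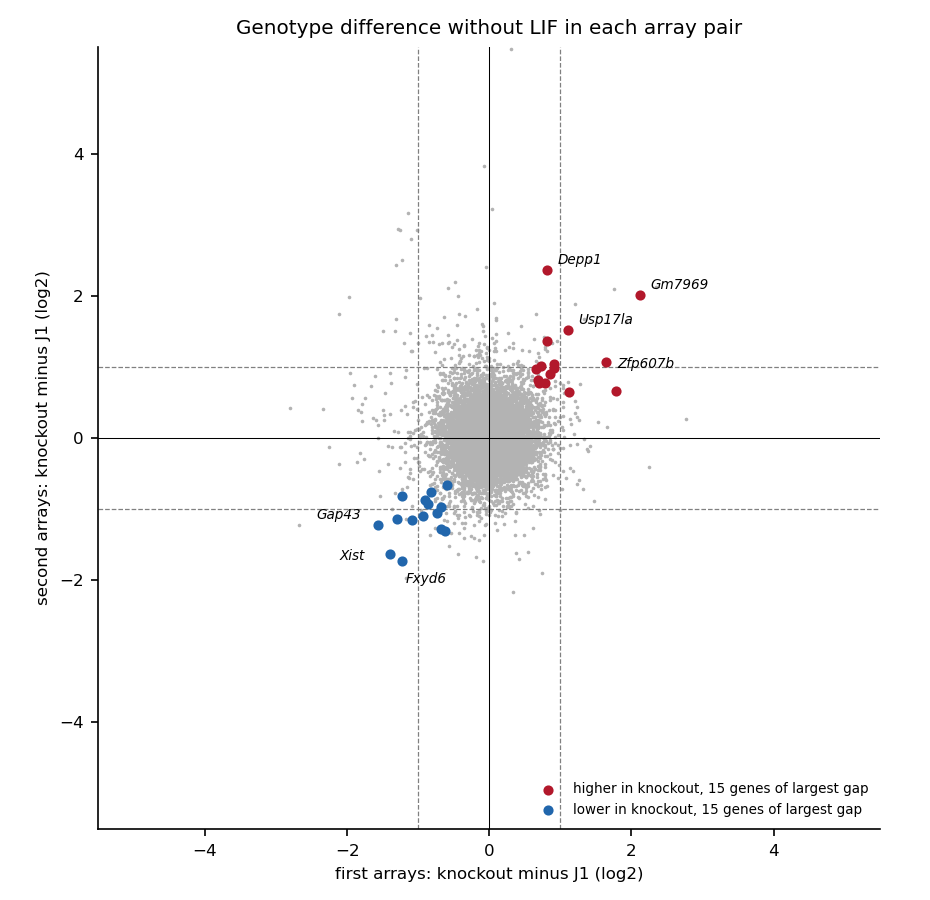
Each point is 1 of 14892 probe sets, with the knockout-minus-J1 difference without LIF (log2) of the first arrays on the x axis and of the second arrays on the y axis, and dashed lines at 2-fold. The cloud has no slant (r = 0.033), and the coloured points are the 15 genes in each direction of largest gap between the groups, which were picked from these same values.

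Only a few probe sets were at least 2-fold apart in the same direction in both pairs. There were 9 higher in the knockout (0.0604% of those tested) and 8 lower (0.0537%), with adjusted p of 0.666 or more by limma. In all 9 of the higher ones the knockout arrays lay above both J1 arrays. They comprise Gm7969, Usp17la and Zfp607b, 4 probe sets that the platform annotation assigns to several genes and 2 that have no symbol there. Of the 4, the one with the widest mean difference read 9.42 and 10.64 in J1 cells and 11.76 and 12.76 in the knockout arrays. One without a symbol read 9.39 and 9.26 against 10.72 and 10.93. With LIF, 8 of the 9 were also at least 2-fold higher in both pairs, and of the 8 lower ones described next 3 were at least 2-fold lower in both pairs. The 8 lower probe sets were Xist, Fxyd6, Gap43, Epha4, Rprd2, Rassf1, Tnfrsf12a and Tagln, and in 5 of them the groups did not overlap. In the other 3 the second J1 array lay below the first knockout array. Tagln, a smooth muscle actin-binding protein, read 12.12 and 6.32 in J1 cells and 9.45 and 5.09 in the knockout arrays, so the spread within each genotype was wider than the mean difference of -1.95 (SE 2.34).

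Genes were then ranked by the gap between the groups, the lowest array of the higher group minus the highest array of the lower one. The groups did not overlap in 1054 genes higher in the knockout (12.6% of 8365) and 1174 lower (14.0%). The 15 genes of largest gap in each direction had gaps of 0.65 to 1.48 and of 0.60 to 1.24 log2 units. These 30 were chosen by the values without LIF, which are given as a description. Their readings with LIF did not enter the gaps, but they entered the floor, which is a mean over all 8 arrays.

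**Figure D2:**
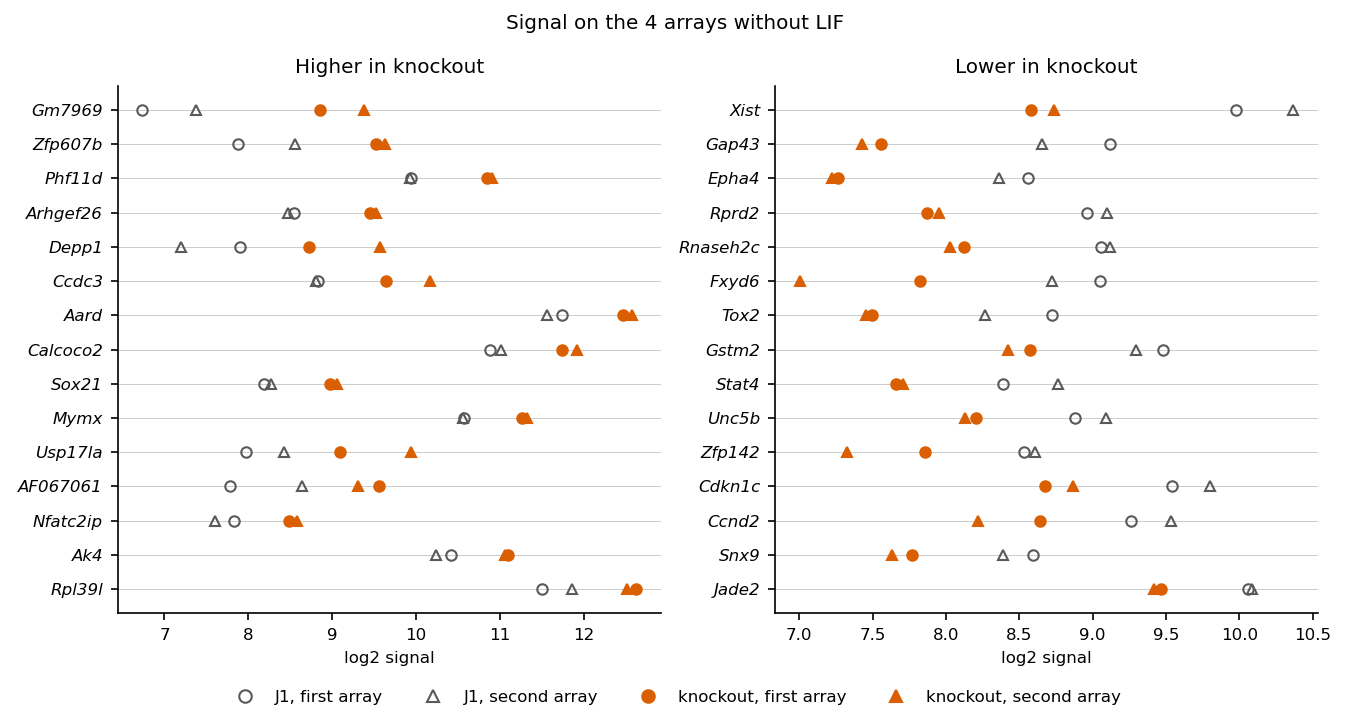
Log2 signal on the 4 arrays without LIF of the 15 genes of largest gap in each direction, with open grey marks for J1, filled orange marks for the knockout, circles for first and triangles for second arrays. In every gene the orange marks lie on one side of the grey ones, as the choice of genes requires, and first and second arrays lie close together in Jade2, Mymx and Phf11d and farther apart in Depp1.

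Among the higher genes, several belong to multicopy families. Gm7969, an unnamed gene model on chromosome 13, read 6.74 and 7.37 in J1 cells and 8.85 and 9.38 in the knockout arrays. Its difference of 2.06 (SE 0.26) was the highest of the 15, and was 2.11 and 2.01 in the pairs. A further probe set of Gm7969 just below the floor differed by 1.86. AF067061, also on chromosome 13, read 7.78 and 8.64 against 9.56 and 9.30. The probe sets of Gm7969 and AF067061 carry the suffix x_at, which marks probes that also match other transcripts, so the gene that gave the signal is uncertain. The ranked probe set of Rnaseh2c, among the lower genes, carries it too. Those of Ak4, Xist, Tox2 and Zfp142 carry the suffix s_at, and whether they match other transcripts was not checked. Usp17la, a deubiquitinase of a repeated family known from early cleavage embryos, read 7.98 and 8.43 in J1 cells and 9.09 and 9.94 in the knockout arrays. Eif1a, the other member of that list above the floor, differed by 0.08 (SE 0.22). Rpl39l, a paralog of a ribosomal protein gene that is best known from the male germ line, read 11.49 and 11.86 against 12.62 and 12.51.

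The other higher genes have varied roles. Phf11d, a PHD finger protein, read 9.94 and 9.93 in J1 cells against 10.85 and 10.91, with arrays of a group close together. So did Mymx, a micropeptide of myoblast fusion, at 10.57 and 10.55 against 11.27 and 11.32. Arhgef26, a guanine nucleotide exchange factor, read 8.54 and 8.47 against 9.45 and 9.52. Ak4, a mitochondrial adenylate kinase, read 10.41 and 10.24 against 11.09 and 11.06, and 2 further probe sets of Ak4 above the floor differed by 0.74 and 0.87. Calcoco2, an autophagy receptor, differed by 0.88 (SE 0.16) and Aard by 0.88 (SE 0.17). Sox21, a SoxB transcription factor of the nervous system, differed by 0.78 (SE 0.27). Zfp607b, a KRAB zinc finger gene, differed by 1.36 (SE 0.29), Ccdc3 by 1.09 (SE 0.33) and Nfatc2ip by 0.82 (SE 0.38). A brighter probe set of Nfatc2ip, at a mean level of 11.3, differed by only 0.27. Depp1, a FOXO-induced gene, differed by 0.82 in one pair and 2.37 in the other (mean 1.59, SE 1.03).

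Xist had the largest gap among the lower genes. This long noncoding RNA coats the inactive X chromosome, and Rex-1 and YY1 are both known for opposing roles at its gene. Xist read 9.98 and 10.37 in J1 cells and 8.58 and 8.74 in the knockout arrays, a difference of -1.51 (SE 0.22, adjusted p = 0.666 by limma) with -1.40 for the first pair of arrays and -1.63 for the second pair. Both knockout arrays were below both J1 arrays by more than 1 log2 unit. Its 2 other probe sets lay far below the floor, at mean levels of 3.33 and 5.24. In the pairs the first of them differed by 0.68 and -3.3, and the second by -0.2 and -0.73. The difference given for Xist thus rests on the ranked probe set alone, and whether that one reads only Xist was not checked. The window around the Xist start site, minus strand of chrX:103483184-103483483 (build GRCm38.p6), is shown because YY1 and Rex-1 share closely related recognition sequences. The letters GCCATNTT of the YY1 core, searched on both strands, occur in 6.05% of the 32851 mouse promoter windows of the same 300 bases. In Xist they match once, at base 13 of the transcript, and the match is in capitals.
Xist: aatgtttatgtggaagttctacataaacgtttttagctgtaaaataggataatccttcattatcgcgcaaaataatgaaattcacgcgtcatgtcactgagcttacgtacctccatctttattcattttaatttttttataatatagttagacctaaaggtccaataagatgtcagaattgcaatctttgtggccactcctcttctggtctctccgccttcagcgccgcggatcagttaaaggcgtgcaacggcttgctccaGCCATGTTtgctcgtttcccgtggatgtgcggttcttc

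Gap43, a growth cone protein, read 9.12 and 8.65 in J1 cells against 7.56 and 7.43 in the knockout arrays. Epha4, an ephrin receptor, read 8.56 and 8.36 against 7.26 and 7.23, and its other probe sets above the floor differed by -0.40 and -0.76. Unc5b, a netrin receptor, read 8.88 and 9.09 against 8.20 and 8.13. Fxyd6, a modulator of the sodium pump, read 9.05 and 8.72 against 7.82 and 7.00. That both knockout arrays lay below both J1 arrays here follows from the choice of genes by gap. In the Epha4 probe set that differed by -0.76 the groups overlapped, at 9.88 and 9.21 against 9.22 and 8.35. With LIF the ranked Epha4 probe set overlapped too, at 8.19 and 8.73 against 7.21 and 8.51, whereas Gap43, Unc5b and Fxyd6 did not.

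Cdkn1c, an imprinted inhibitor of cyclin-dependent kinases, read 9.54 and 9.80 in J1 cells against 8.68 and 8.87. Ccnd2, a D-type cyclin, read 9.26 and 9.53 against 8.64 and 8.22, and its 3 other probe sets above the floor differed by -0.88, -0.93 and -0.93. Over the 36 cell cycle and replication genes tested, both of these included, the median was -0.02 (0.02 without the second J1 array and -0.07 without the first), with 8 lower and 5 higher without overlap. Rprd2, which binds the tail of RNA polymerase II, differed by -1.12 (SE 0.16, adjusted p = 0.666 by limma), and by -0.83, -1.10 and -0.27 in its 3 other probe sets above the floor. Rnaseh2c, a subunit of ribonuclease H2, differed by -1.01 (SE 0.22), but its 2 other probe sets differed by only -0.06 and -0.31. Over all 30 genes, 9 had further probe sets above the floor, and 16 of these 16 had the same sign as the one ranked. Gstm2, a glutathione transferase, differed by -0.89 (SE 0.17), Zfp142 by -0.98 (SE 0.21), Tox2 by -1.02 (SE 0.39), Snx9 by -0.79 (SE 0.22) and Jade2 by -0.63 (SE 0.16). Further probe sets above the floor differed by only -0.35 for Zfp142 and -0.11 for Snx9, and by -0.71 for Unc5b.

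The readings with LIF are given beside these as a description, since the floor used them too. Mean levels over the 8 arrays were close to the floor for some genes, at 8.03 for Gm7969, 8.01 for Epha4 and 8.03 for Tox2, and Gm7969 was below a log2 of 8 on every J1 array. All 15 higher genes had a positive difference with LIF, and in 11 the groups again did not overlap in the same direction, where 12.5% of all genes did. The median of the 15 was 0.94 without LIF and 0.73 with it. Of the 15 lower genes 13 had a negative difference with LIF, 11 of them without overlap, where 15.4% of all genes did, and the medians were -0.98 and -0.66. limma called none of the 30 with LIF. Gm7969 differed by 2.01 (SE 0.26) with LIF, Usp17la by 1.73 (SE 0.39), Fxyd6 by -1.70 (SE 0.34), Xist by -1.40 (SE 0.22), Gap43 by -1.25 (SE 0.27) and Ccnd2 by -1.18 (SE 0.22). Stat4, a STAT protein of cytokine signalling, went the other way: it read 8.39 and 8.76 in J1 cells and 7.66 and 7.70 in the knockout arrays without LIF, but 7.78 and 7.66 against 8.25 and 8.32 with LIF. No difference between the media was called by limma among the 30.

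**Figure D3:**
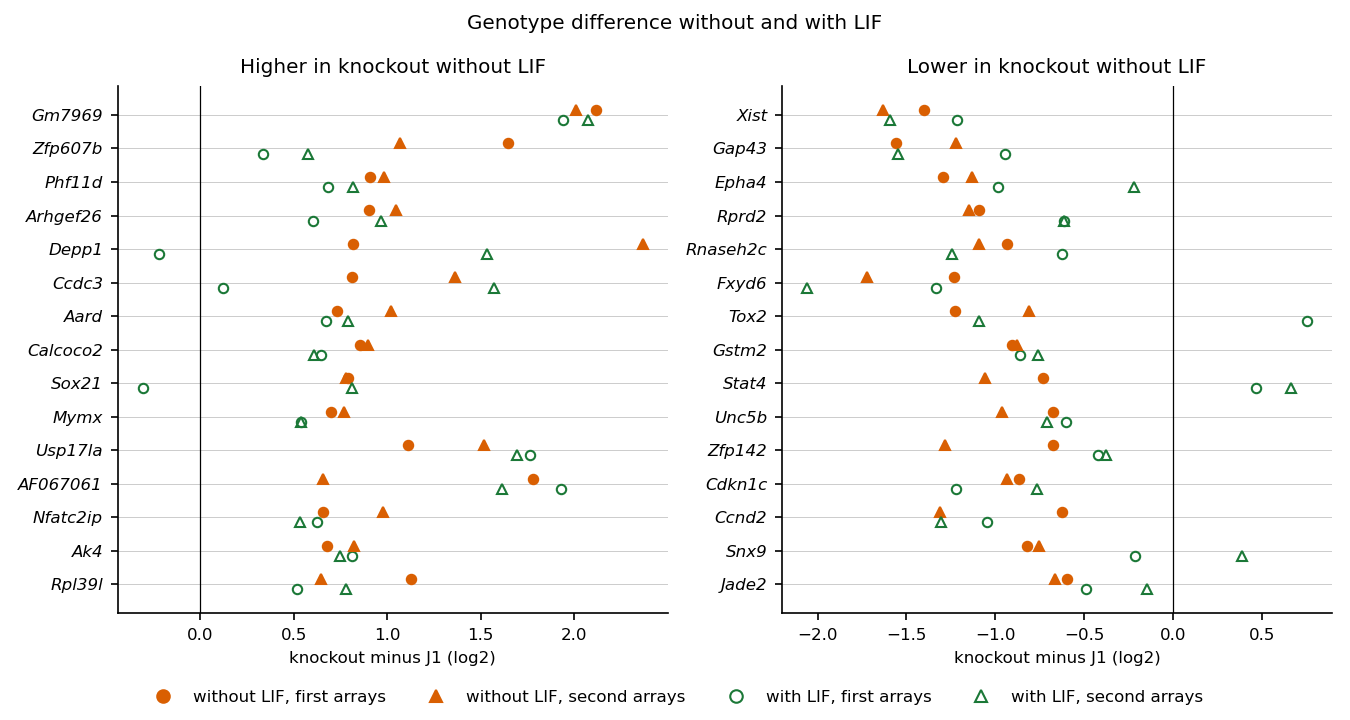
Knockout-minus-J1 difference (log2) of the same 30 genes without LIF (filled orange) and with LIF (open green), with circles for first and triangles for second arrays. Green marks lie on the same side of 0 as the orange ones for most genes, and both green marks of Stat4 lie on the other side.

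Gene groups were described by the median difference of their members and by how many had groups without overlap, to be read against the 12.6% higher and 14.0% lower and the median of -0.01 over all 8365 genes. No member of any list was called by limma. All are bulk values, in which fewer cells of a type and less RNA per cell cannot be told apart.

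Naive transcription factors were mostly higher in the arrays labelled knockout. Of 14 tested 11 had a positive difference, 6 were higher and 1 lower without overlap, and the median was 0.29 (first arrays 0.21, second arrays 0.31). Tbx3, a T-box factor of the LIF-driven network, read 9.46 and 9.02 in J1 cells and 10.09 and 10.41 in the knockout arrays, a difference of 1.01 (SE 0.22, adjusted p = 1.0 by limma). Klf4, a Kruppel-like factor and direct STAT3 target, read 11.23 and 10.55 against 11.51 and 11.26. Nr0b1, an orphan nuclear receptor, read 11.69 and 11.28 against 12.07 and 11.81. In these 3 genes both knockout arrays were above both J1 arrays. Esrrb, a further nuclear receptor of this network, read 11.04 and 10.80 against 11.29 and 11.28. With LIF the median of the list was 0.15, and Klf4 differed by -0.10 (SE 0.28).

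General embryonic stem cell genes did not share this lean. The 18 tested had a median of 0.00 (-0.07 to 0.05 when an array was left out), with 9 positive and 9 negative differences and 2 without overlap in each direction. Nanog read 12.30 and 12.80 in J1 cells and 12.66 and 13.07 in the knockout arrays, with overlap. Fbxo15 differed by 0.47 (SE 0.39), and Lin28a, an inhibitor of let-7 maturation, by -0.40 (SE 0.21).

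LIF and STAT3 targets were compared between the lines. A difference between arrays that are all titled minus LIF cannot show whether LIF was absent. The 22 tested had a median of 0.06, which came to 0.30 when the first J1 array was left out and -0.24 when the second was, so its sign turned with 1 array. Without overlap 3 were higher and 3 lower. Egr1, an immediate early gene, differed by -0.80 (SE 0.50), the kinase Pim2 by -0.61 (SE 0.41), Sgk1 by -0.59 (SE 0.19) and Ier3 by -0.53 (SE 0.49). For Egr1 and Pim2 this came mostly from the second pair. Egr1 differed by -0.21 in the first pair and -1.4 in the second, Pim2 by -0.11 and -1.12, and Sgk1 by -0.66 and -0.52.

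Primed epiblast genes were mostly lower in the arrays labelled knockout. Of 14 tested 12 had a negative difference, 7 were lower and 0 higher without overlap, and the median was -0.50 (first arrays -0.35, second arrays -0.58). It was -0.29 without the second knockout array. Pou3f1, a POU factor that marks the primed state, read 9.62 and 9.65 in J1 cells and 9.19 and 8.32 in the knockout arrays. Cldn6, a tight junction claudin, read 9.58 and 8.89 against 8.42 and 8.21. Sox11, a SoxC factor, read 10.31 and 9.65 against 9.53 and 8.62. Krt18, an epithelial keratin, read 12.76 and 9.15 against 10.51 and 9.01, and its groups overlapped. With LIF the median was -0.44, with 4 lower and 0 higher without overlap.

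Otx2, the factor that leads exit towards the epiblast, did not follow: it read 8.90 and 10.20 in J1 cells and 9.40 and 9.27 in the knockout arrays, with overlap. Otx2 and Dnmt3l were chosen for their roles after their values were seen. Dnmt3a, a de novo DNA methyltransferase, read 11.27 and 11.17 in J1 cells against 10.83 and 10.71, a difference of -0.46 (SE 0.17), and -0.65 with LIF. Dnmt3b read 13.03 and 13.56 against 13.11 and 12.48, with overlap, and Dnmt3l, their cofactor, differed by 0.05 (SE 0.21). Over the 12 DNA methylation enzymes the median was -0.12, and 0.04 without the second knockout array, -0.04 without the first J1 array and -0.20 without the second J1 array. Mbd2, a reader of methylated DNA, differed by -0.51 (SE 0.17), and Tet2, which oxidises methylcytosine, by 0.29 (SE 0.29).

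Germ cell genes that are silenced by promoter DNA methylation in most cells were mostly higher. Of 13 tested 11 had a positive difference, 6 were higher and 0 lower without overlap, and the median was 0.26 (first arrays 0.20, second arrays 0.17). It was 0.17 without the first J1 array. Mael, a protein of the piRNA pathway, read 9.20 and 9.09 in J1 cells and 9.48 and 9.88 in the knockout arrays. Ddx4, the germ cell RNA helicase Vasa, read 10.13 and 10.62 against 10.80 and 10.79. Dazl, a germ cell RNA-binding protein, read 8.57 and 8.61 against 8.74 and 9.46. Rhox6, an X-linked homeobox gene, read 7.65 and 8.08 against 9.32 and 8.24. In all 4 both knockout arrays were above both J1 arrays, by 0.13 to 0.27 log2 units between the nearest arrays. With LIF Mael differed by 0.49 and Ddx4 by 0.44, and 6 of the 13 were higher and 1 lower without overlap. The lower one was Tex19.2, which was among the 6 higher ones without LIF.

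Promoters of this class are known for repression by E2F6 and by complexes with MGA and MAX that bind the E-box, besides DNA methylation. Those of Mael and Ddx4 are shown because both carry these letters and both genes were higher in each medium. In the 250 bases before the start site, TCCCGC occurs in 16.9% of the 32851 mouse promoters on either strand, CACGTG in 6.02% and both in 1.45%. Of the 13 genes 9 had a promoter in the table, 5 with TCCCGC, 5 with CACGTG and 4 with both. The matches, in capitals, are TCCCGC or its complement GCGGGA and CACGTG. They lie at base -143 and base -223 of the Mael start site (minus strand, chr1:166238745-166238994) and at base -136 and base -29 of that of Ddx4 (minus strand, chr13:112652311-112652560), both in build GRCm38.p6.
Mael: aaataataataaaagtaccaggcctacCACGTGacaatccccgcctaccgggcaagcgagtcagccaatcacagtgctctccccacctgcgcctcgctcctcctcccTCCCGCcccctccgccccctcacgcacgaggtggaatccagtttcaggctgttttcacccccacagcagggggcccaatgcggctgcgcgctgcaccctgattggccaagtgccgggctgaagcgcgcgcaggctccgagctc
Ddx4: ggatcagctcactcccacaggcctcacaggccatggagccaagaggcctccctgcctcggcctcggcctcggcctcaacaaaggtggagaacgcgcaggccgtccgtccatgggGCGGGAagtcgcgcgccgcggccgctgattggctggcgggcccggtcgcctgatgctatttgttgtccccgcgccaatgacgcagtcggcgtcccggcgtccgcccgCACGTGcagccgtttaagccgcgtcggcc
The other 2 genes with both matches, Hormad1 and Sycp3, differed by 0.02 and -0.01.

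Imprinted genes, expressed from the allele of 1 parent, had a median of -0.33 over 18 tested. The pairs gave -0.25 and -0.01, and it was 0.04 without the first J1 array, -0.22 without the second and -0.21 without the first knockout array. Without overlap 6 were lower and 1 higher. Besides Cdkn1c, Grb10, an adaptor that restrains insulin signalling, read 10.42 and 10.57 in J1 cells against 9.92 and 9.60. Mirg, a noncoding RNA of the Dlk1-Meg3 domain, read 8.83 and 9.52 against 8.40 and 8.73. Igf2, the fetal growth factor, read 9.48 and 7.84 against 7.83 and 8.11, and here the first J1 array stood above the other 3.

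Neural ectoderm genes leaned lower, with a median of -0.25 over 14 tested, 6 lower and 1 higher without overlap. The median was -0.07 without the first J1 array. Beside Gap43 and Sox11, Pax6, a neural and eye transcription factor, read 8.61 and 8.85 against 8.28 and 7.66, and Marcks, an actin-linked kinase substrate, differed by -0.74 (SE 0.49). The summed neural markers, with Pax6 among them, did not separate the groups, at 2022 and 2078 in J1 cells and 2018 and 2207 in the knockout arrays.

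Epithelial adhesion genes included 9 lower and 3 higher without overlap among 24, with a median of -0.10, and -0.21 without the second J1 array and -0.04 without the first. Cldn7, a claudin of simple epithelia, read 9.22 and 8.65 in J1 cells and 8.27 and 7.64 in the knockout arrays. Esrp1, an epithelial splicing regulator, read 9.11 and 9.65 against 9.06 and 8.64. Dsp, a desmosomal protein, differed by -0.73 (SE 0.67).

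Several actin cytoskeleton genes were highest on the first J1 array. Of 32 tested 27 had a negative difference and 8 were lower and 0 higher without overlap. The median was -0.25, with -0.41 and -0.14 for the pairs, but it was 0.09 without the first J1 array, -0.57 without the second and -0.10 without the second knockout array. Tpm1, a tropomyosin, read 11.97 in the first J1 array against 10.31, 10.42 and 9.85 in the other 3. Acta2, smooth muscle actin, read 12.24 there against 9.46, 10.49 and 10.03. Csrp1 differed by -0.63 (SE 0.64). The 6 fibroblast and feeder genes above the floor had medians of -1.54 (first arrays) and 0.16 (second arrays), and their mean-based median of -0.59 was 0.61 without the first J1 array, -1.70 without the second and -0.31 without the second knockout array. Col1a2, a collagen chain, read 9.26 in the first J1 array and 7.60 to 7.93 in the other 3, while Col1a1, Col3a1, Postn, Lum, Dcn and Thy1 had mean levels below the floor in the 8 arrays. The actin list and the fibroblast list are not independent, since the lowest difference in both was -1.95, that of Tagln. Whether fibroblasts or feeder cells were present and had a part in the actin values was not tested.

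**Figure D4:**
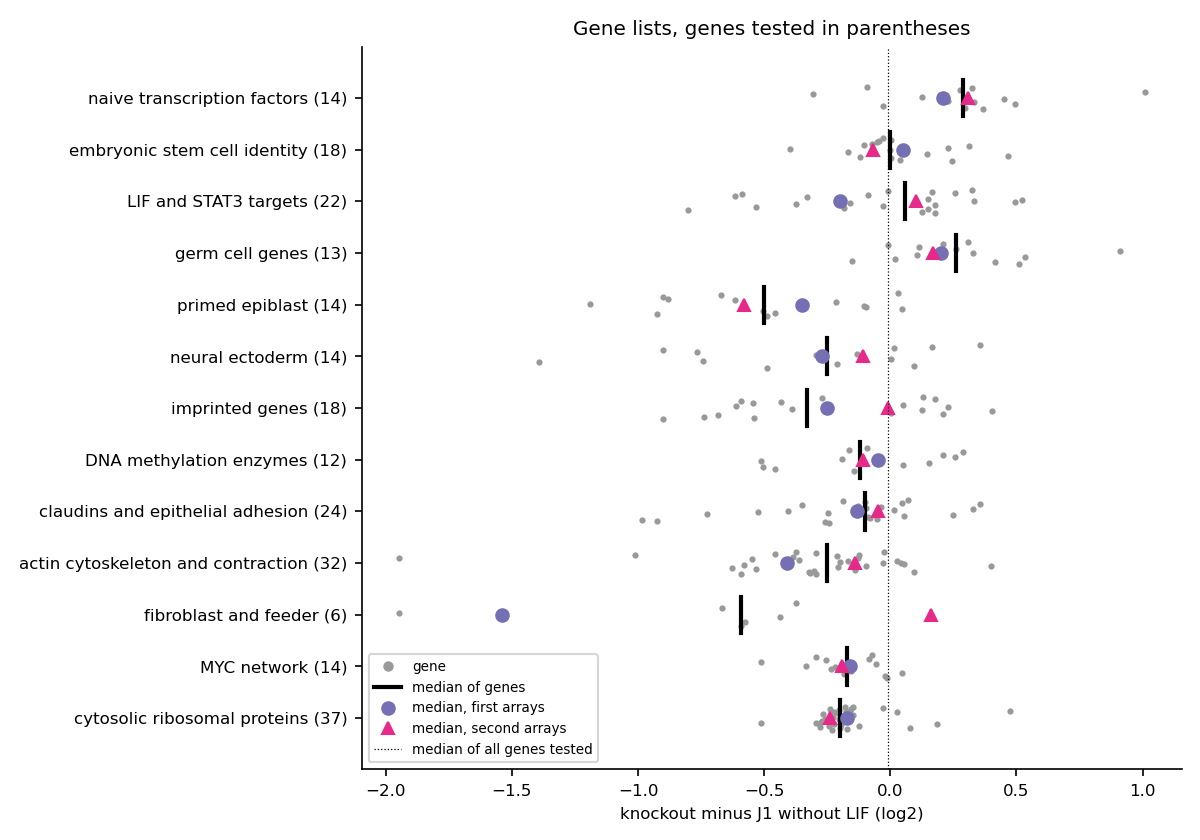
Knockout-minus-J1 difference without LIF (log2) of each tested gene (grey points) in 13 lists, with a black bar at the median and coloured marks at the medians of the first arrays (circles) and second arrays (triangles). Naive factors lie to the right of 0 in both pairs and primed epiblast genes to the left, whereas the fibroblast list is at -1.54 for the first pair and 0.16 for the second pair.

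Ribosomal protein genes were slightly lower nearly throughout, and so were other genes of the same brightness. Of 37 tested 33 had a negative difference, 32 of them in both pairs, and 12 were lower and 1 higher without overlap, with a median of -0.20. The 30 with a mean log2 of at least 14 had a median of -0.20, against -0.17 for the 69 other genes at that level. Rpl38 read 14.87 and 15.06 in J1 cells and 14.54 and 14.80 in the knockout arrays. Rpl39 differed by -0.51 (SE 0.27), Rps27 by 0.47 (SE 0.65) and Rpl14 by -0.28 (SE 0.25). Over all genes the median difference was 0.02 at mean levels of 8 to 9, -0.07 at 13 to 14 and -0.19 at 14 and above. After quantile normalization it was 0.00 for genes at 14 and above and 0.00 for the ribosomal list, with 18 of 37 negative. Without the second J1 array the median of the list was -0.07, without the first knockout array -0.10 and without the first J1 array -0.31. The MYC network, a list with several bright genes of ribosome production, had a median of -0.17 over 14 genes, 13 of them negative, and -0.07 after quantile normalization. Mycn, the MYC paralog of embryonic stem cells, read 12.58 and 12.76 in J1 cells and 12.49 and 11.82 in the knockout arrays.

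Signalling lists had medians near that of all genes. The 15 BMP and ID genes had a median of 0.05, in which Bmp4, a ligand that keeps up Id genes, read 10.11 and 9.12 in J1 cells and 10.51 and 10.16 in the knockout arrays, and Id2 read 11.02 and 11.85 against 10.87 and 10.74. Smad7 read 12.24 in the first knockout array and 10.00 to 10.44 in the other 3. The BMP median was 0.10 without the second J1 array and 0.03 without the first knockout array. The 17 WNT genes had a median of -0.02 (-0.09 without the first knockout array), with Lgr4, an R-spondin receptor, at 0.36 (SE 0.15). The 18 Nodal and Lefty genes had a median of 0.05, and -0.14 without the first knockout array and -0.04 without the second J1 array. The 21 FGF and ERK genes had one of -0.01, which lay between -0.15 (without the first knockout array) and 0.23 (without the first J1 array), and 0.04 after quantile normalization. Fgfr2, an FGF receptor, differed by 0.54 (SE 0.28). Of the 20 mesoderm and primitive streak genes 0 reached the floor.

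Genes of chromosome 1 leaned lower, a pattern chosen after its values were seen. Of 463 genes 107 (23.1%) were lower and 34 (7.34%) higher without overlap, whereas the 19 other chromosomes had higher shares of 9.21% to 15.9% and lower shares from 10.8% upward, all below that of chromosome 1. The median was -0.07 for chromosome 1, with -0.07 and -0.11 for the pairs, against -0.04 to 0.02 for the others. It was -0.07 after quantile normalization and between -0.09 and -0.07 when each array was left out. In 17 of 18 successive blocks of 25 genes along the chromosome, more genes were lower than higher without overlap. This count largely restates the totals of the chromosome, and blocks of other chromosomes were not counted. Epha4, Stat4 and Zfp142 of the lower genes lie on chromosome 1, and Mael, which was higher. With LIF 103 genes (22.2%) were lower and 47 (10.2%) higher, with a median of -0.06, where the other chromosomes reached 21.5% lower and 17.1% higher and had medians of -0.05 to 0.01. No test was made of this pattern.

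**Figure D5:**
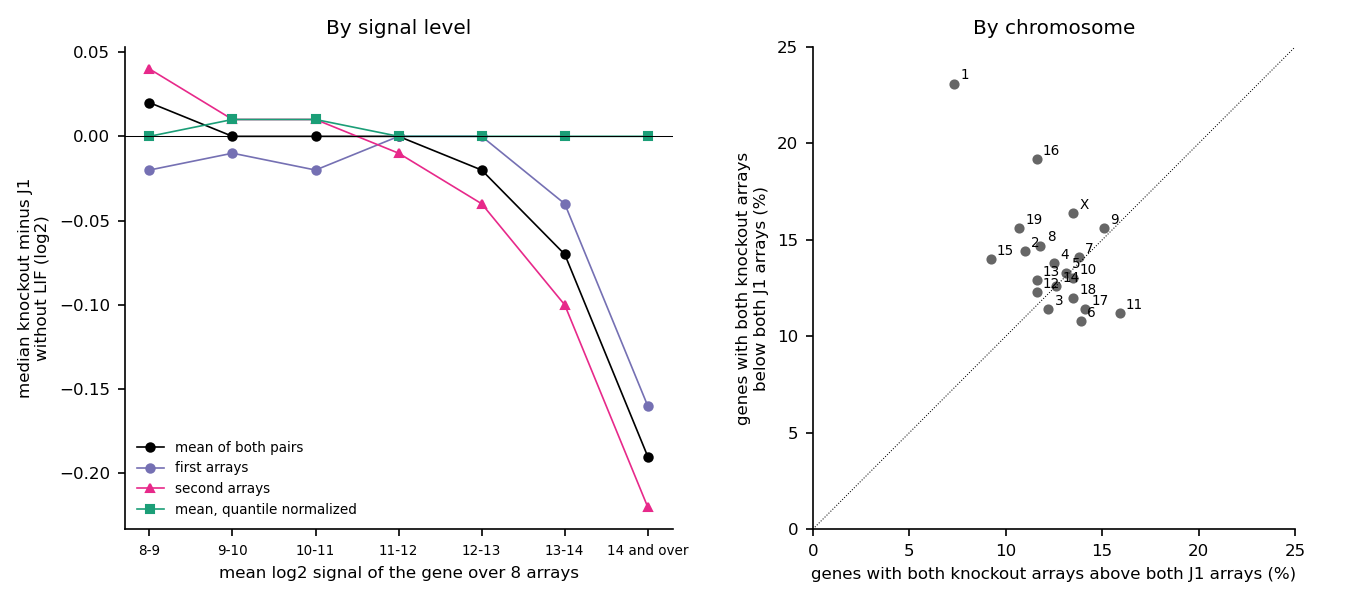
Left, median knockout-minus-J1 difference without LIF (log2) of genes grouped by mean log2 signal, for both pairs, each pair and quantile-normalized values. Right, for each chromosome the share of genes without overlap that were higher (x axis, %) and lower (y axis, %) in the knockout: bright genes reach -0.19 before normalization and 0.00 after it, and chromosome 1 stands at 7.34% and 23.1%.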

How the data were processed

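The deposited table holds linear intensity, 1 value per probe set, from a mouse Affymetrix array, with GCRMA named in the submitters' processing notes without version or role. In every deposited column the mean trimmed by 2% at each end was 500, so the authors scaled the intensity values, by a step not given in the sources used here. Column medians ran from 114.2 to 143.5. No detection value was used, low values hold an unknown share of background, and the number of arrays limits the precision.

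Intensities were taken to log2 with no pseudocount. Of 45037 probe sets kept, 34945 have 1 symbol in the platform annotation, 932 have several and 9160 none, and no gene was named from those with several. limma 3.58.1 (R 4.3.3) was fitted to all 8 arrays with 1 mean per group, no block and eBayes without a trend, with Benjamini-Hochberg adjustment over the 14892 tested probe sets, and was tested on simulated data. SE comes from this fit. List genes were represented by their probe set of highest mean. Named were the 15 genes of largest gap in each direction, Zfp42, Yy1, the 4 genes of largest difference in a list, and any list member without overlap that was 2-fold apart in both pairs. Other genes with values were chosen after these were seen. The comparison, lists and members were chosen with earlier results of these data known. Promoter sequences are RefSeq's (GRCm38.p6), and 21 of the 30 ranked genes had one. Alternatives covered the filter, normalization, pseudocount of 16, variance prior, which arrays enter the fit, averaging a gene's probe sets, the letter r as a block, and each array left out. Figures used matplotlib 3.10.9.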

Additional observations from a re-analysis of the deposited data

Results flagged for a closer look

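Stat4 was the 1 named gene of the 30 whose genotype difference had opposite signs in every array pair of the media. It was -0.73 and -1.06 in the pairs without LIF and 0.47 and 0.66 in those with LIF. The difference of the differences was -1.46 (SE 0.25, unadjusted p = 0.000485 and adjusted p = 1.0 in the limma fit), so it was not called over 14892 probe sets. Without overlap and opposite in the media were 271 probe sets in all (1.82% of those tested). Groups of 2 arrays are too small for a check of single outlying arrays.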

How the results depend on the processing

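limma called 0 probe sets in each of the 3 contrasts under every alternative but the letter r as a replicate block, which gave 4 calls without LIF (1042 at an unadjusted p under 0.05) and 3 with LIF (1576), and 0 for the difference between the media. The 4 include Gm7969 (adjusted p = 0.0493) and 3 probe sets without a symbol of their own. The letter was checked as a pairing. Over 14892 probe sets the second array minus the first correlated between groups at 0.236 to 0.638, 0.338 for the pair without LIF. The difference between first and second arrays was thus partly shared by the groups. Each SE in the text comes from the fit without a block and includes it. For Gm7969 the SE was 0.26 without the block and 0.18 with it. A group has 2 arrays and no label says what r marks, so the block was kept as an alternative only. The count at least 2-fold higher in both pairs, 9, was 1092 with a log2 of at least 4 in at least 2 arrays, 1152 with no filter, 4 at a mean log2 of at least 10 and 3 with the probe sets of a gene averaged. The count lower, 8, was 865, 903, 0 and 5 in these settings, and the filters set how many dim probe sets enter. The first arrays alone gave 51 and 99 and the second alone 148 and 87. Leaving out 1 array moved Yy1 between -0.25 and 0.19, and its sign turned when the second knockout array (0.19) or the first J1 array (0.08) was left out. For the 30 ranked genes, Zfp42 and Yy1, these were the 2 turned signs in 552 comparisons. Single list genes were not counted here. Gm7969 was called under the block. Of 406 comparisons of list medians 73 moved by more than the SD between the array pairs, and the cause was not tested beyond the values in the text. The non-overlap counts and the chromosome 1 median under other normalizations were added after seeing the data. The floor of 8 removed 30145 probe sets of low signal, and with no filter 0 of 45037 were called without LIF (1642 at an unadjusted p under 0.05).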

Other observations

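Some groups not yet described are given here. Their counts without overlap are to be read against the 12.6% higher and 14.0% lower over all genes. Of 16 p53 targets 3 were higher and 2 lower without overlap, with Gadd45b, a stress-induced growth arrest gene, at 0.70 (SE 0.35), Pmaip1, the BH3-only protein Noxa, at 0.54 (SE 0.32), and Cdkn1a, the cell cycle inhibitor p21, at -0.46 (SE 0.25). Among 24 Polycomb proteins 4 were higher and 5 lower, with a median of -0.02 that was 0.03 without the second J1 array and 0.04 on quantile-normalized values. The 6 Eph receptors and ephrins above the floor had a median of -0.03, from -0.28 without the second J1 array to 0.18 without the first, in which the ephrin Efnb2 read 9.61 and 9.66 in J1 cells against 9.39 and 8.73 in the knockout arrays. Of 13 interferon and innate immunity genes Oas1a, an antiviral RNA sensor, read 9.45 and 9.14 against 9.81 and 9.85, and differed by -0.05 with LIF. Of 6 retinoic acid genes Crabp1, a retinoic acid-binding protein, differed by 0.47 (SE 0.22) and Rara, a retinoic acid receptor, by -0.39 (SE 0.17).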
